A study of Homo sapiens with 9 samples.

Results

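Non-homologous end joining rejoins the ends of a broken DNA double strand directly, without copying a sister chromatid. The genes described here are its 10 core genes, XRCC6, XRCC5, PRKDC, LIG4, XRCC4, NHEJ1, C9orf142, DCLRE1C, POLL and POLM, chosen by name for their known role and found among the 57773 genes of the deposited expression table. They were read in OVCAR-8, an established human ovarian cancer cell line, 48 h after transfection. The study depleted CDK12, a kinase of RNA polymerase II elongation known for maintaining the expression of DNA repair genes. A control siRNA against luciferase was compared with 2 siRNAs against CDK12, called CDK12-2 and CDK12-6, with 3 libraries a group. The libraries of a group carry the numbers AK39, AK41 and AK49 and are technical replicates per the labels, so every p-value below measures the spread between libraries of 1 line and not between separate cultures. All groups are transfected OVCAR-8 cells, and the labels give no untransfected group and no further allele or agent.

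In this pathway the Ku heterodimer, made of the products of XRCC6 and XRCC5, encircles a DNA end and recruits the kinase encoded by PRKDC. The nuclease Artemis (DCLRE1C) trims ends, the polymerases encoded by POLL and POLM fill gaps, and ligase IV (LIG4) with its partner XRCC4 seals the break. The XRCC4-like proteins XLF (NHEJ1) and PAXX (C9orf142) help to hold the ends together. The same machinery joins the cut antigen receptor genes of lymphocytes in V(D)J recombination.

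Depth did not limit the reading of any of the 10 genes, since the lowest number of reads behind a value was 925 (XRCC4). The libraries had 104963048 to 131472019 reads in listed genes, or 68.2% to 82.7% of their reads, and this share was lowest within its group in AK41 for luciferase (75.8%) and in AK39 for CDK12-2 (68.2%) and CDK12-6 (70.5%). CDK12 itself had 8.33, 7.09 and 8.40 RPKM (read counts scaled to gene length and to the size of the library) in the luciferase AK39, AK41 and AK49 libraries, and 2.06 to 2.75 RPKM in the 6 CDK12 siRNA libraries. Epithelial markers were present, with a sum over 8 genes of 429 to 512 RPKM with luciferase siRNA and 406 to 555 RPKM with CDK12 siRNA, mostly from KRT8 and KRT18. Among them MUC16 was at or near 0, KRT7 and EPCAM were higher with CDK12 siRNA (adjusted p = 0.0084 and 0.0029, limma) and MSLN was lower (adjusted p = 0.0020). The sums over 4 lymphoid markers and over VWF and CDH5, both endothelial, stayed under 1 RPKM in every library, with CD3E at 0 throughout. The myeloid sum over 3 genes went from 13.9 to 17.2 RPKM with luciferase siRNA to 3.92 to 5.56 RPKM with CDK12 siRNA and was mostly CD68. CD14 reached at most 0.203 RPKM, and LYZ had 1.20 RPKM in luciferase AK39 and 0.029 to 0.093 RPKM in the other 8 libraries. The fibroblast sum over 5 genes was 13.3 to 23.5 and 16.5 to 37.6 RPKM and was nearly all COL1A1, with DCN at 0 and COL1A2 near 0. The part of CD68 or of any other marker in the results below was not tested.

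The promoters of the 3 genes that fell most are shown first. XRCC6 and LIG4 each have a promoter window that overlaps that of a neighbour on the other strand, a comparison made further on. The sequences are RefSeq windows of build GRCh38.p14, from 250 bases before to 50 after a start, 5′ to 3′ on the gene's strand. Capitals mark every match on either strand to 4 short motifs: the GC box GGGCGG, the pentamer CCAAT, which binds NF-Y, the hexamer TGACGT, part of the cyclic AMP response element, and CCGGAAG, which binds ETS factors. A window was found for 8 of the 10 genes, all except XRCC5 and PRKDC, and LIG4 has several, of which the one nearest its neighbour is shown.
XRCC6, chr22:41621045-41621344, plus strand: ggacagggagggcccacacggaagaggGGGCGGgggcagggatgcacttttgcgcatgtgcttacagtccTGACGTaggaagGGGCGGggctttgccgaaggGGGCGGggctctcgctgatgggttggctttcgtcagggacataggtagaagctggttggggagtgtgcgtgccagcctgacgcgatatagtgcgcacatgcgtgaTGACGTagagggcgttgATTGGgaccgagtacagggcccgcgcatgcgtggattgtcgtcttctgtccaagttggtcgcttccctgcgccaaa
LIG4, chr13:108218300-108218599, minus strand: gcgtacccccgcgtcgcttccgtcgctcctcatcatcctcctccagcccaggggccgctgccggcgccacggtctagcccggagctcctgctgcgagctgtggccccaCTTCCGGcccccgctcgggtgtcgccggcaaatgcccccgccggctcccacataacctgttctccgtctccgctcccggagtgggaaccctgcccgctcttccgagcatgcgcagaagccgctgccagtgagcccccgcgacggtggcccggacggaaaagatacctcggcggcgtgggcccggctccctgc
C9orf142 (RefSeq name PAXX), chr9:136992172-136992471, plus strand: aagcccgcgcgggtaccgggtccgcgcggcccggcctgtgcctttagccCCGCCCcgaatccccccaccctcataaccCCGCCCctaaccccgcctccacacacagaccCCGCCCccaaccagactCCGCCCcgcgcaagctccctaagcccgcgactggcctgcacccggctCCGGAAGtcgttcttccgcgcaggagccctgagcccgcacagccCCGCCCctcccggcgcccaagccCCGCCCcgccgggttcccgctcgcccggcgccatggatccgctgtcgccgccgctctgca
The XRCC6 window held 3 GC boxes, 2 TGACGT and 1 CCAAT, and the C9orf142 window held 6 GC boxes and 1 CCGGAAG at 75.7% G and C. The printed LIG4 window held 1 CCGGAAG and none of the other 3 motifs. The LIG4 windows not printed each held 1 to 3 matches to TGACGT, and some held a GC box, CCAAT or CCGGAAG. Among 35116 promoter windows of the same length, 45.0% held a GC box, 34.6% CCAAT, 10.3% CCGGAAG and 7.98% TGACGT, and the median G and C content was 58.7%. A search for TATAAA found no match in the 3 printed windows, against 11.5% of all windows. These matches describe letters and not bound sites.

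With luciferase siRNA the 10 genes spanned a wide range of levels per length. XRCC6 stood highest at 134 ± 7.40 RPKM (SD, n = 3), followed by XRCC5 at 68.5 ± 8.03, PRKDC at 53.5 ± 8.21 and C9orf142 at 27.9 ± 2.82 RPKM, with no overlap between neighbours in this order. LIG4 (10.4 ± 1.58 RPKM) and POLM (10.1 ± 1.89) overlapped each other, as did XRCC4 (3.63 ± 0.770) and NHEJ1 (3.50 ± 0.135). POLL (3.04 ± 0.394 RPKM) lay below NHEJ1, and DCLRE1C (2.18 ± 0.247 RPKM) was the lowest. The end-binding factors were thus the most abundant transcripts and the nuclease gene the least abundant. All 10 were among the 15208 genes tested, which had at least 1 RPKM in at least 3 libraries, and each reached that level in every library.

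**Figure D1:**
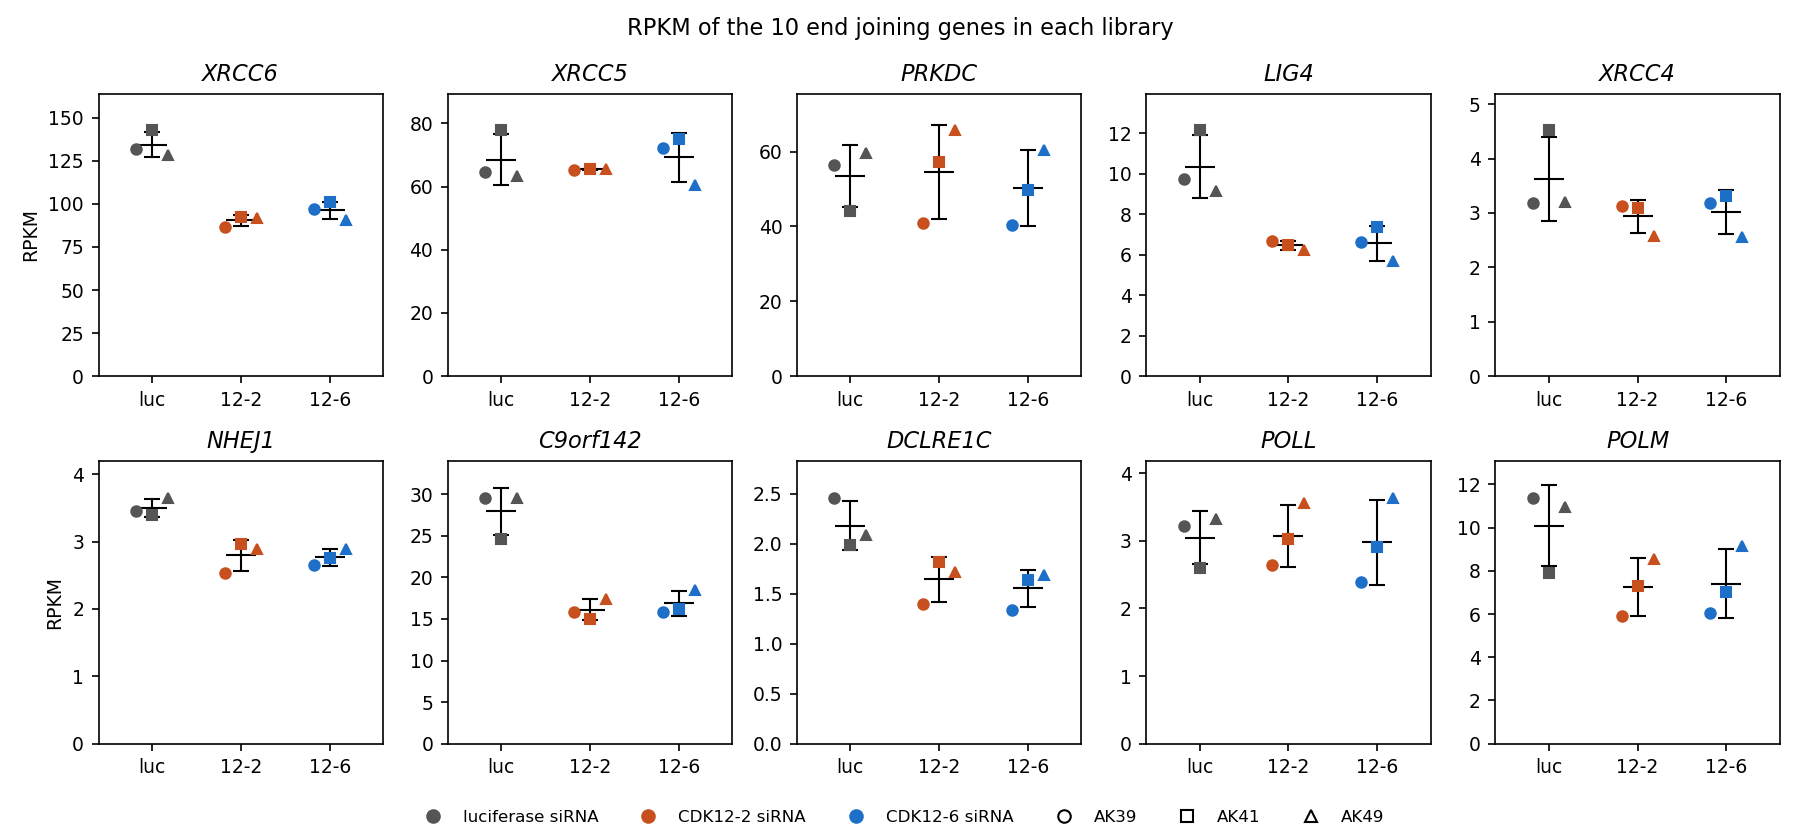
RPKM of the 10 end joining genes in each library, 1 panel a gene with an axis from 0, for luciferase (luc), CDK12-2 (12-2) and CDK12-6 (12-6) siRNA. Symbols give the AK number, and bars the mean and SD of 3 libraries. In XRCC6, LIG4, C9orf142, NHEJ1 and DCLRE1C all 6 CDK12 siRNA libraries lie below all 3 controls.

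Against luciferase siRNA, 5 of the 10 genes were lower for the mean of both CDK12 siRNAs, XRCC6, LIG4, C9orf142, NHEJ1 and DCLRE1C, and 0 were higher (limma on log2(RPKM + 1), Benjamini-Hochberg adjusted p under 0.05 over all tested genes). Of all tested genes, 19.7% were called lower, 13.3% higher and 33.0% either way. The balance of the 2 directions over all genes depends on the scaling. With equal medians 3663 genes were higher and 3076 lower, and with each library scaled by its reads in listed genes 3395 and 3158, against 2027 and 2997 here. In the same 5 genes all 6 CDK12 siRNA libraries lay below all 3 controls, which held for 19.9% of tested genes. The median log2 fold change of the 10 genes was -0.27, and that of all tested genes was -0.037 (0.032 with equal medians). With CDK12-2 alone 4 of the 10 were lower and 0 higher, where 15.4% of tested genes were lower and 25.2% changed either way. With CDK12-6 alone 5 were lower and 0 higher, where 15.6% were lower and 26.0% changed. Both comparisons use the same 3 control libraries. In bulk RNA, fewer cells that express a gene and less of its RNA per cell cannot be told apart.

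Among the end-binding factors only XRCC6, the Ku70 gene, passed the test. The gene (ENSG00000196419) had 132, 143 and 128 RPKM in luciferase AK39, AK41 and AK49. In the same order it had 86.8, 92.6 and 92.1 RPKM with CDK12-2 and 96.8, 101 and 90.8 RPKM with CDK12-6. The highest CDK12 siRNA library was thus well under the lowest control. On the log2(RPKM + 1) scale it fell by 0.52 ± 0.072 (SE, adjusted p = 0.00060, limma) for the mean of both, by 0.56 with CDK12-2 and by 0.48 with CDK12-6.

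XRCC5, the gene for its obligate partner Ku80, did not pass. The gene (ENSG00000079246, chromosome 2, 216972187 to 217071026 in hg19) had 64.6, 77.8 and 63.3 RPKM with luciferase, 65.3, 65.7 and 65.4 RPKM with CDK12-2, and 72.3, 75.1 and 60.4 RPKM with CDK12-6. The 3 groups overlapped, and the lowest and the highest library were CDK12-6 AK49 and luciferase AK41. Its log2 fold change was -0.022 with a 95% interval from -0.24 to 0.19 (adjusted p = 0.88, limma), an interval that leaves out the change seen in XRCC6.

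PRKDC encodes the catalytic subunit of the DNA-dependent protein kinase, which Ku activates on DNA ends. The gene (ENSG00000253729) had 56.5, 44.1 and 59.7 RPKM with luciferase, 40.9, 57.3 and 65.6 RPKM with CDK12-2, and 40.3, 49.7 and 60.5 RPKM with CDK12-6. The groups overlapped fully, and within each group the library with the lowest share of reads in listed genes had the lowest value. The log2 fold change was -0.041, with an interval from -0.43 to 0.35 (adjusted p = 0.88, limma), so a moderate change in either direction was not excluded.

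Of the ligation complex, LIG4, the ligase dedicated to this pathway, fell and its stabilising partner XRCC4 did not pass. LIG4 (ENSG00000174405) had 9.76, 12.2 and 9.17 RPKM with luciferase, 6.67, 6.48 and 6.23 RPKM with CDK12-2, and 6.65, 7.40 and 5.68 RPKM with CDK12-6. All CDK12 siRNA libraries lay below the controls, and the mean fell by 37.1%. The log2 fold change was -0.59 ± 0.10 for the mean of both (adjusted p = 0.0020, limma), -0.60 with CDK12-2 and -0.58 with CDK12-6.

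XRCC4 (ENSG00000152422) had 3.17, 4.52 and 3.19 RPKM with luciferase, 3.14, 3.08 and 2.58 RPKM with CDK12-2, and 3.18, 3.31 and 2.55 RPKM with CDK12-6. Luciferase AK41 stood above the other 8 libraries, and the remaining controls overlapped the CDK12 siRNA libraries. The log2 fold change of -0.21 had an interval from -0.46 to 0.039 (adjusted p = 0.18, limma).

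Both XRCC4-like factors fell, C9orf142 the most of the 10 genes. C9orf142, whose product PAXX binds Ku (ENSG00000148362), had 29.6, 24.7 and 29.6 RPKM with luciferase, 15.9, 15.0 and 17.5 RPKM with CDK12-2, and 15.8, 16.2 and 18.5 RPKM with CDK12-6. The groups lay far apart, and the mean fell by 41.0%. It fell by 0.72 ± 0.090 on the log2 scale (adjusted p = 0.00032, limma), by 0.76 with CDK12-2 and by 0.69 with CDK12-6.

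NHEJ1, the XLF gene (ENSG00000187736, chromosome 2, 219940039 to 220025587 in hg19), had 3.46, 3.39 and 3.65 RPKM with luciferase, 2.53, 2.96 and 2.89 RPKM with CDK12-2, and 2.65, 2.76 and 2.89 RPKM with CDK12-6. Its controls were close together and all above the CDK12 siRNA libraries, and the mean fell by 20.6%. The log2 fold change was -0.25 ± 0.067 (adjusted p = 0.018, limma), and -0.25 and -0.26 with the single siRNAs. Without luciferase AK39 the adjusted p was 0.065, and when AK49 was left out of that group it was 0.084. Leaving out AK39, AK41 or AK49 in all groups gave 0.086, 0.146 and 0.102. The single-siRNA calls (adjusted p = 0.044 for CDK12-2 and 0.037 for CDK12-6, limma) were each lost without any 1 of the 3 controls, and the lowest of these 6 adjusted p-values was 0.059. The CDK12-2 call was also lost without any 1 library of CDK12-2 or AK39 or AK41 of CDK12-6, and the CDK12-6 call without AK39 or AK41 of CDK12-6 or AK41 of CDK12-2 (adjusted p = 0.059 to 0.118). Nearly the whole listed span of NHEJ1, 85537 of 85549 bases, lies within that of SLC23A3 on the same strand, a gene at 1.75 ± 0.083 RPKM in the controls, so its value depends on how shared reads were counted. SLC23A3 had 1.44 ± 0.092 RPKM with CDK12 siRNA (log2 fold change -0.18, adjusted p = 0.0504, limma).

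Among the end-processing members the nuclease gene DCLRE1C fell. The gene (ENSG00000152457, chromosome 10, 14939358 to 14996431 in hg19) had 2.46, 1.99 and 2.09 RPKM with luciferase, 1.39, 1.82 and 1.72 RPKM with CDK12-2, and 1.34, 1.63 and 1.69 RPKM with CDK12-6. The gap between groups was narrow, from 1.82 RPKM in CDK12-2 AK41 to 1.99 RPKM in luciferase AK41. Its log2 fold change was -0.29 ± 0.084 (adjusted p = 0.024, limma), with adjusted p = 0.071 for CDK12-2 and 0.038 for CDK12-6. The call for the mean of both was lost when AK39 (0.124) or AK49 (0.062) was left out of the controls, and without the filter on low values (0.053). It was also lost when AK39 (0.149), AK41 (0.094) or AK49 (0.064) was left out of all groups. The CDK12-6 call was lost in 9 of 24 alternatives. Among them were those without the same controls (0.145 and 0.082), AK39 (0.128) or AK41 (0.081) of CDK12-6, or AK41 of CDK12-2 (0.053). SUV39H2, on the other strand, overlaps 6957 bases of its span, and the kit does not mark strand, so the value of DCLRE1C is uncertain. SUV39H2 had 6.31 ± 0.276 RPKM with luciferase and 7.45 ± 0.565 with CDK12 siRNA (log2 fold change 0.21, adjusted p = 0.067, limma). The part of shared reads was not tested.

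POLM, a gap-filling polymerase gene (ENSG00000122678, chromosome 7, 44111846 to 44122139 in hg19), had 11.4, 7.92 and 11.0 RPKM with luciferase, 5.89, 7.31 and 8.55 RPKM with CDK12-2, and 6.03, 7.04 and 9.15 RPKM with CDK12-6. Luciferase AK41 was the low control and lay among the CDK12 siRNA libraries. The log2 fold change was -0.41 ± 0.15 (adjusted p = 0.065, limma), and without luciferase AK41 it was -0.56 (adjusted p = 0.026). Quantile normalization (0.019), equal medians (0.020) and a scaling by reads in listed genes (0.030) also gave an adjusted p under the threshold, as did leaving out AK49 of CDK12-2 (0.045) or of CDK12-6 (0.025), and leaving out AK41 of luciferase with AK39 of both CDK12 siRNAs (0.021).

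POLL, the related polymerase gene (ENSG00000166169, chromosome 10, 103338639 to 103348027 in hg19), had 3.22, 2.59 and 3.32 RPKM with luciferase, 2.64, 3.02 and 3.55 RPKM with CDK12-2, and 2.39, 2.90 and 3.63 RPKM with CDK12-6. The groups covered nearly the same range. Its log2 fold change was -0.012 with an interval from -0.27 to 0.25 (adjusted p = 0.95, limma). The span of POLL lies wholly inside that of DPCD on the other strand (6.39 ± 0.344 RPKM in the controls), so reads of both cannot be told apart without strand.

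**Figure D2:**
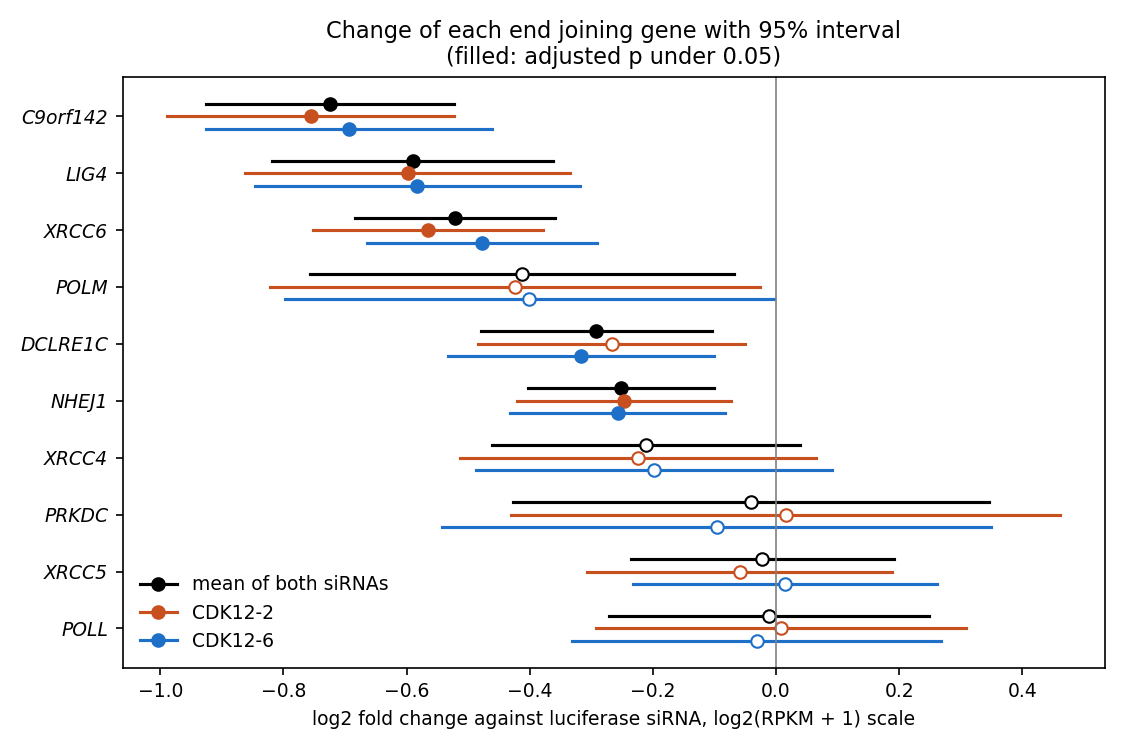
Log2 fold change of each gene, in units of log2(RPKM + 1), against the luciferase control, for the mean of both CDK12 siRNAs (black), CDK12-2 and CDK12-6, with 95% intervals from limma before adjustment. Filled points have an adjusted p under 0.05. C9orf142 (-0.72), LIG4 (-0.59) and XRCC6 (-0.52) lie farthest from 0, and XRCC5, PRKDC and POLL centre near it.

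The authors' deposited table holds 1 comparison, whose log2 fold change had a Pearson r of 0.99987 across genes with the log2 ratio of mean RPKM between the 6 CDK12 siRNA and the 3 control libraries. There, 6 of the 10 genes had a lower level at a false discovery rate under 0.05 in the authors' deposited table, a condition met by 21.9% of the genes tested here. In the authors' deposited table these were the 5 genes above and POLM, at a log2 fold change of -0.47 and a false discovery rate of 0.0015. XRCC4 had a false discovery rate of 0.26 in the authors' deposited table.

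Between the siRNAs themselves, 0 of the 10 genes differed, where 0 of the 15208 tested genes did (0% called; limma, with 101 genes at an unadjusted p under 0.05, and 0 by voom on recovered reads). Log2 differences of CDK12-2 minus CDK12-6 ran from -0.087 (XRCC6) to 0.11 (PRKDC), and PRKDC was higher with CDK12-2 under each of the 3 AK numbers. With the AK number as a block 0 genes were called as well. In the main fit, which has no block, the 95% interval was -0.27 to 0.10 for XRCC6, -0.29 to 0.17 for C9orf142 and -0.28 to 0.25 for LIG4. Differences between the siRNAs up to these bounds were thus not excluded by that fit, which leaves the AK number out.

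Several of the genes deviated from their group means together within a library, and such shared deviations were not particular to end joining genes. Across genes, deviations in luciferase AK41 correlated at 0.74 and 0.80 with those in CDK12-2 AK39 and CDK12-6 AK39. The correlations were -0.13 and 0.47 with CDK12-2 AK41 and CDK12-6 AK41, and -0.76 and -0.83 with CDK12-2 AK49 and CDK12-6 AK49. Whether end joining genes deviated more than other genes was not tested. In luciferase AK41, LIG4, XRCC4, XRCC5 and XRCC6 were 0.22, 0.27, 0.19 and 0.087 log2(RPKM + 1) units above their group mean. In the same library POLM, PRKDC, POLL, C9orf142 and DCLRE1C were below it, at -0.30, -0.26, -0.17, -0.17 and -0.085 units. In the AK49 libraries of all 3 groups most of these genes deviated the other way. Exceptions were DCLRE1C in luciferase (-0.039) and XRCC6 in CDK12-2 (0.026), where XRCC5 was near its mean (-0.0012). Deviations cancel within a group, so opposite signs in luciferase AK41 and AK49 are partly built in. PRKDC in AK49 was 0.17, 0.29 and 0.28 units above its mean in luciferase, CDK12-2 and CDK12-6, POLM 0.12, 0.22 and 0.29, and POLL 0.10, 0.17 and 0.23. XRCC4 was below its mean in each AK49 library, at -0.13, -0.13 and -0.17 units. XRCC6 and NHEJ1 stayed closest to their group means, within -0.081 to 0.087 and -0.10 to 0.064 units.

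Since partner proteins act together, the ratio of their RPKM values was compared within each library, where the scaling of a library cancels. Of 7 pairs, 5 ratios differed between the 6 CDK12 siRNA and the 3 luciferase libraries (exact two-sided permutation test, adjusted p = 0.0167 over the 7 pairs). In these 5 pairs the groups did not overlap, and the raw p of 0.0119 is the smallest that 84 arrangements can give. With any 1 luciferase library left out these 5 adjusted p-values no longer lay under 0.05, because fewer arrangements are left. Each of these 5 pairs holds a gene called lower above or POLM, as do the pairs that did not pass. Of single tested genes 33.0% were called either way by limma. The share of other gene pairs that would pass was not computed, so the count of pairs has no background beside it. Ratios of RPKM compare transcript levels and not protein.

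For the Ku subunits, XRCC6 over XRCC5 was 2.05, 1.83 and 2.03 with luciferase, 1.33, 1.41 and 1.41 with CDK12-2, and 1.34, 1.34 and 1.50 with CDK12-6. The mean went from 1.97 ± 0.118 (SD, n = 3) to 1.39 ± 0.0663 (SD, n = 6), a log2 difference of -0.50. For the ligase complex, LIG4 over XRCC4 was 3.07, 2.69 and 2.87 with luciferase and 2.09 to 2.41 with CDK12 siRNA. Here the log2 difference was -0.39, although XRCC4 itself did not pass.

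NHEJ1 over C9orf142 rose from 0.126 ± 0.0104 to 0.169 ± 0.0149, a log2 difference of 0.43, so the pair of XRCC4-like factors fell by unequal amounts. POLL over POLM rose from 0.304 ± 0.0224 to 0.414 ± 0.0187 (log2 difference 0.44), and was 0.283, 0.327 and 0.303 in the controls against 0.396 to 0.448 in the CDK12 siRNA libraries. In this ratio the low luciferase AK41 value of POLM was met by a low value of POLL.

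PRKDC over DCLRE1C, the kinase and the nuclease that it activates, rose from 24.6 ± 3.47 to 32.6 ± 3.58 (log2 difference 0.41). With 1 RPKM added to both genes this difference was 0.25 (exact permutation test, adjusted p = 0.139). XRCC4 over C9orf142 (0.133 ± 0.0435 and 0.182 ± 0.0309, exact permutation test, adjusted p = 0.083) and XRCC4 over NHEJ1 (1.04 ± 0.253 and 1.08 ± 0.161, exact permutation test, adjusted p = 0.79) did not pass, and in both the groups overlapped.

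**Figure D3:**
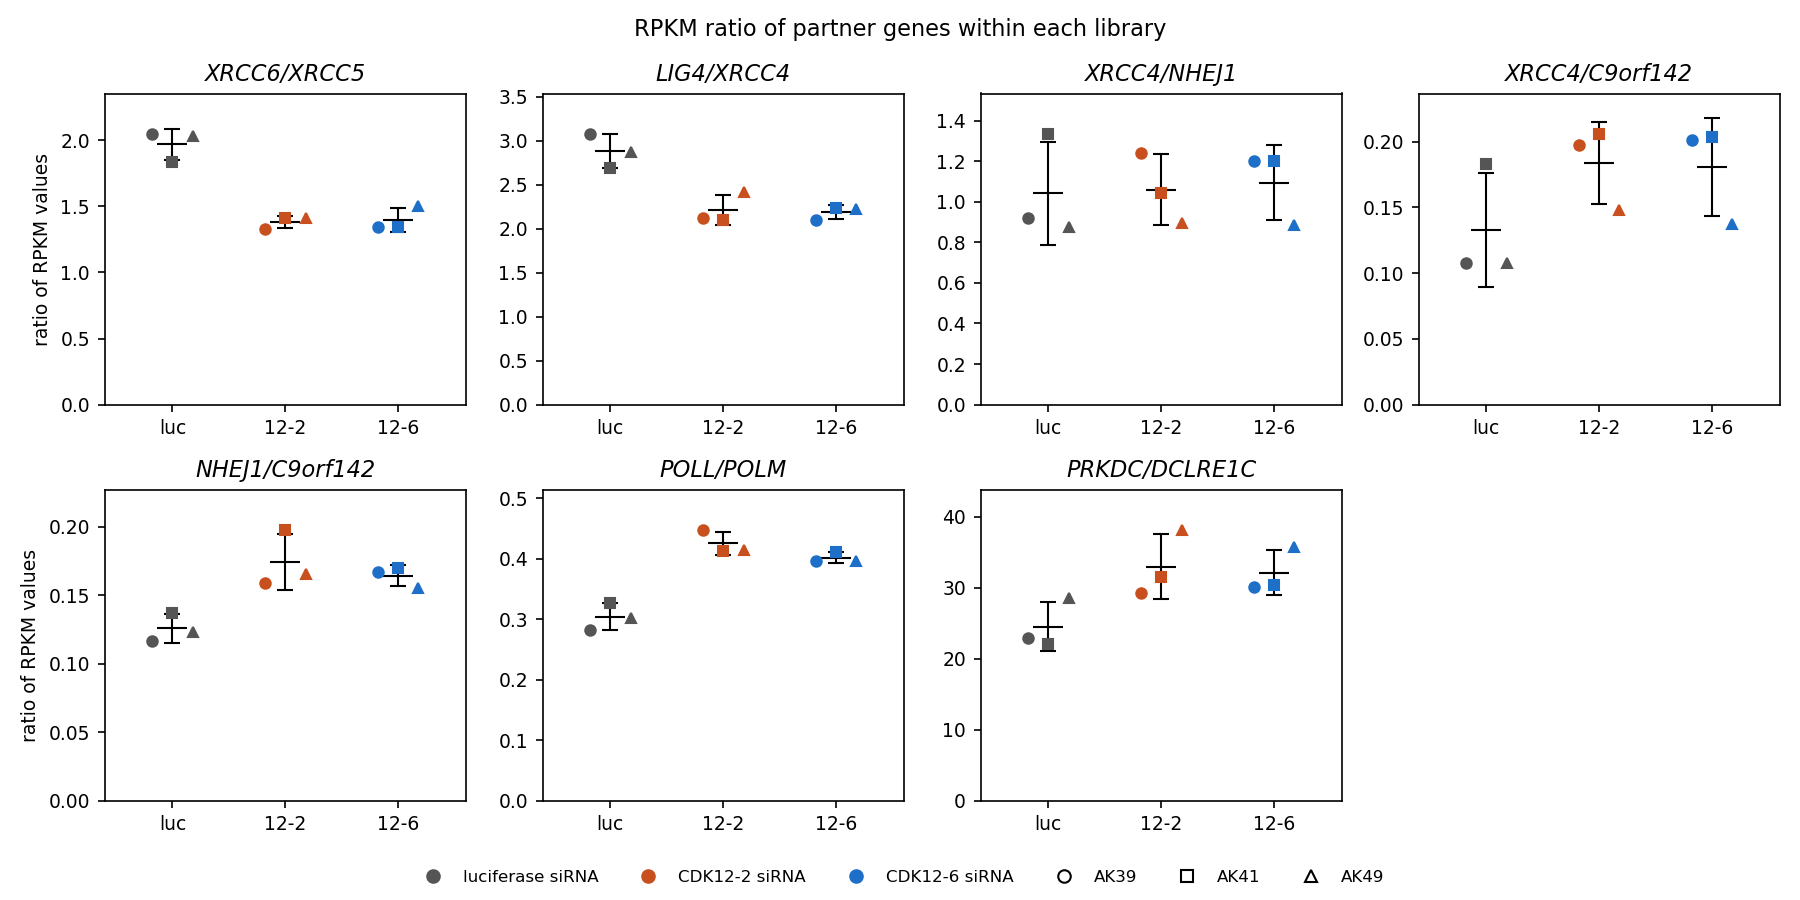
RPKM ratio of 7 partner gene pairs in each library, 1 panel a pair with an axis from 0, for luciferase (luc), CDK12-2 (12-2) and CDK12-6 (12-6) siRNA. Symbols give the AK number, and bars the mean and SD of 3 libraries. Luciferase and CDK12 siRNA libraries do not overlap in 5 pairs and overlap in XRCC4/NHEJ1 and XRCC4/C9orf142.

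Of the 10 genes, 4 start head to head with a neighbour on the other strand. In the hg19 coordinates of the deposited table XRCC6 (chromosome 22, 42017123 to 42060044) starts 23 bases from DESI1, a deSUMOylating enzyme, and LIG4 (chromosome 13, 108859787 to 108870716) starts 11 bases from ABHD13, a hydrolase. PRKDC (chromosome 8, 48685669 to 48872743) starts 2 bases from MCM4, a subunit of the replicative helicase. XRCC4 (chromosome 5, 82373317 to 82649606) starts 365 bases inside the span of TMEM167A, a membrane protein of the secretory pathway. The RefSeq windows of these neighbours overlap those printed above, DESI1 at chr22:41620994-41621293 and ABHD13 at chr13:108218142-108218441 (GRCh38.p14). These pairs were compared after their values had been seen.

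DESI1 fell with XRCC6, from 6.91 ± 0.682 RPKM (SD, n = 3) to 5.02 ± 0.661 (SD, n = 6), a log2 fold change of -0.40 ± 0.11 (adjusted p = 0.019, limma). The ratio of XRCC6 to DESI1 was 19.6 ± 3.15 and 18.9 ± 2.63, and the groups overlapped (exact permutation test, adjusted p = 0.70 over 4 pairs). ABHD13 did not pass, at 5.41 ± 0.849 and 5.91 ± 0.833 RPKM (log2 fold change 0.11, adjusted p = 0.52, limma).

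The ratio of LIG4 to ABHD13 was 2.04, 1.91 and 1.80 with luciferase, 1.12, 1.13 and 1.22 with CDK12-2, and 0.979, 1.07 and 1.16 with CDK12-6. Every CDK12 siRNA library was below every control, at a log2 difference of -0.79 (exact permutation test, adjusted p = 0.0476 over 4 pairs, raw p at the smallest possible). Without any 1 library the direction was kept and the adjusted p of the exact permutation test was 0.071 or higher, since fewer arrangements are left. The genes of this pair thus differed in their change, while their listed starts adjoin. LIG4 has further RefSeq windows within chr13:108214733-108215786 (GRCh38.p14), which do not overlap that of ABHD13. Which LIG4 start was used was not tested.

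MCM4 had 44.3 ± 0.513 and 48.6 ± 2.80 RPKM (log2 fold change 0.13, adjusted p = 0.21, limma), and its ratio to PRKDC overlapped between groups (exact permutation test, adjusted p = 0.38). TMEM167A had 16.2 ± 0.917 and 16.2 ± 0.950 RPKM (adjusted p = 0.98, limma), and the ratio of XRCC4 to it was 0.224 ± 0.0402 and 0.183 ± 0.0150 (exact permutation test, adjusted p = 0.071). Reads of the 366 bases that XRCC4 and TMEM167A share cannot be assigned without strand.

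**Figure D4:**
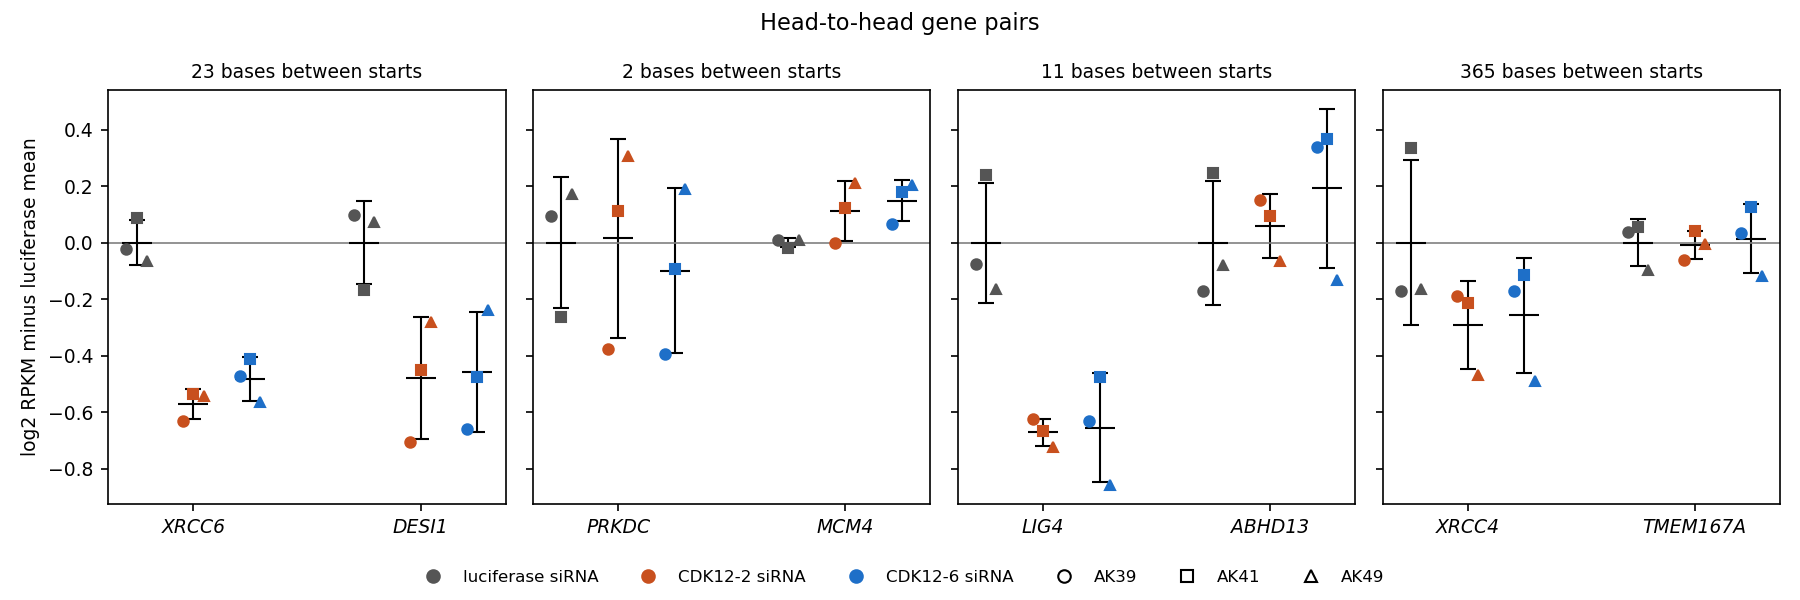
Log2 RPKM of 4 end joining genes and their head-to-head neighbours in each library, minus the luciferase mean of the same gene. Colours give the siRNA, symbols the AK number, and bars the mean and SD of 3 libraries. XRCC6 and DESI1 both lie below 0 with CDK12 siRNA, whereas LIG4 lies below 0 and ABHD13 spreads around it.

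The spans of the genes differed widely, and no test was made of span against change. XRCC4 (276290 bases), PRKDC (187075) and XRCC5 (98840), the 3 with the longest spans, did not pass, and C9orf142, with the largest fall, has the shortest span at 1567 bases (chromosome 9, 139886870 to 139888436 in hg19). NHEJ1 (85549 bases), DCLRE1C (57074) and XRCC6 (42922) lie between and fell, as did LIG4 (10930). POLM (10294 bases) and POLL (9389) have short spans and did not pass.

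The GENCODE 29 3′ UTRs of NHEJ1 and DCLRE1C hold the heptamer GTGGGCA, and those of the other 8 genes do not. In DCLRE1C the site lies in a 3′ UTR of 529 bases, and the longest of that gene, with 1805 bases, lacks it. The heptamer was picked from earlier results of these same data, so its presence is a description only. The sites are shown 5′ to 3′ on the gene's strand in GRCh38, with the heptamer in capitals.
NHEJ1, chr2:219075775-219075781, minus strand: tcttgatgGTGGGCAcaagacag
DCLRE1C, chr10:14908251-14908257, minus strand: actttgagGTGGGCAatggcttg
Of 10909 tested genes with an annotated 3′ UTR, 1776 (16.3%) hold it. Their median log2 fold change was -0.10, and 27.4% were called lower, against -0.032 and 19.4% of genes without it. Their longest 3′ UTR had a median of 2546 bases against 1138 bases, and the part of UTR length was not tested. C9orf142, LIG4 and XRCC6, with the largest falls, lack the heptamer.

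Related lists of double-strand break repair genes are given next, beside the 19.7% of all tested genes called lower and the 13.3% called higher. No tested member of these lists passed the test upward. Among 11 tested genes of end protection and the 53BP1 pathway 1 fell, FAM35A (a subunit of shieldin, -0.42, adjusted p = 0.0024, limma). TP53BP1 and RIF1, which shield ends from resection, had log2 fold changes of 0.070 and -0.075. C20orf196, also of this list, was under the level required for the test, with 0.356 to 0.553 RPKM in the controls and 0.780 to 1.04 RPKM in the CDK12 siRNA libraries, which did not overlap.

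In end resection, the step that commits a break to recombination, 3 of 8 genes fell (19.7% of all tested genes were lower), BRCA1 (-0.54), RBBP8, which encodes CtIP (-0.37, adjusted p = 0.0088, limma), and RAD50 (-0.27, adjusted p = 0.019, limma). MRE11A and NBN, which encode the partners of RAD50, had -0.18 and -0.19 and did not pass. Of 7 genes of alternative end joining 1 fell, the ligase gene LIG1 (-0.52, adjusted p = 0.015, limma), while POLQ, the polymerase that defines this route, had 0.030.

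Among 10 tested relatives of the core genes 3 fell, again beside 19.7% of all tested genes: ATM, a kinase related to the PRKDC product (-0.64, adjusted p = 0.00015, limma), the nuclease gene DCLRE1A (-0.48, adjusted p = 0.0059, limma) and LIG1. Of 7 genes for the assembly of such kinases TTI1 fell (-0.40, adjusted p = 0.036, limma) and TELO2 had -0.25. The factors that only lymphocytes need for V(D)J recombination were not expressed at a testable level, with RAG1 at 0.283, RAG2 at 0.369 and the polymerase gene DNTT at 0 RPKM on average in the controls. HMGB1 and HMGB2, the chromatin proteins of that list, had log2 fold changes of 0.00034 and 0.28, and neither passed.

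**Figure D5:**
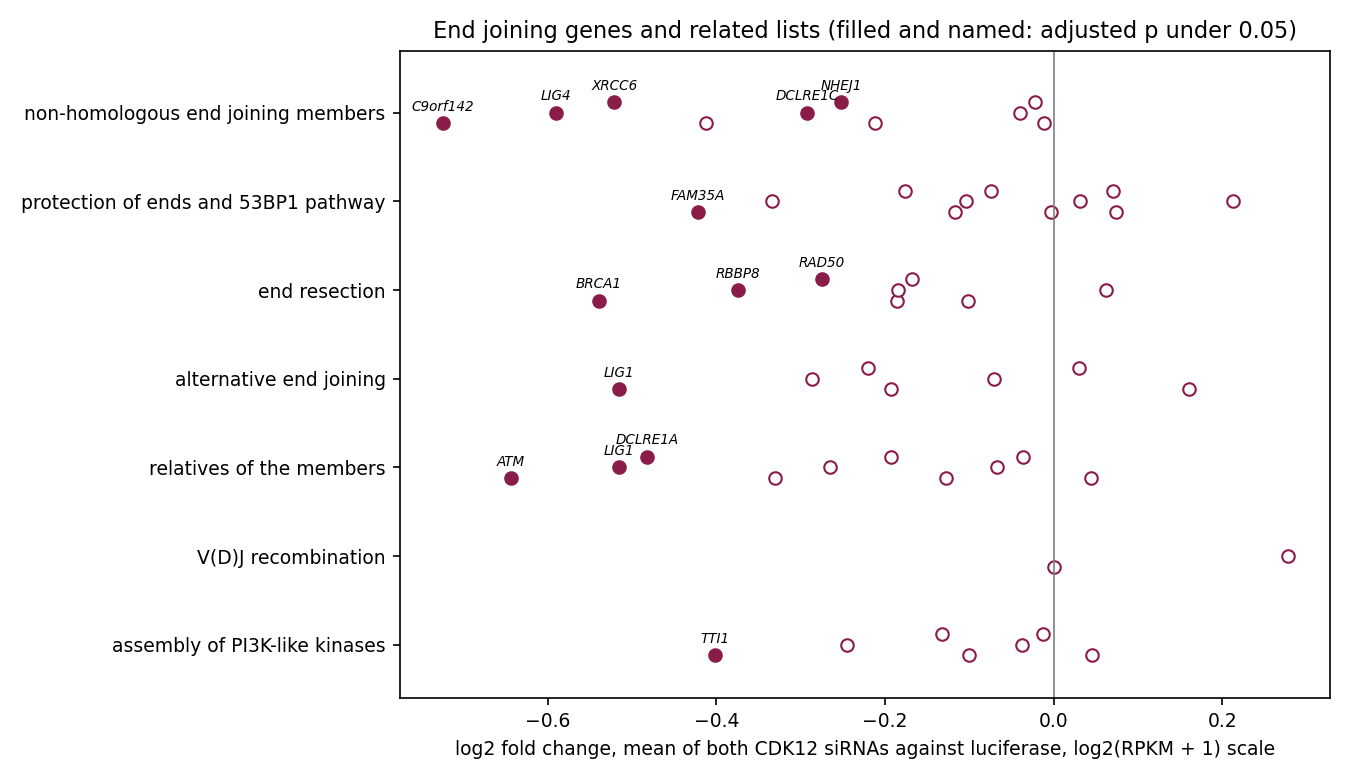
Log2 fold change on the log2(RPKM + 1) scale, mean of both CDK12 siRNAs against luciferase siRNA, with 1 point a tested gene, for the 10 end joining genes and 6 related lists. Filled and named points have an adjusted p under 0.05. All filled points lie below 0, 5 of 10 in the first list and 0 to 3 in each of the others.

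By the smallest root mean square difference over the 9 libraries, the tested genes nearest in pattern to XRCC6 were LARP1B and CD59. Those nearest to LIG4 were USP12 and PTS, and those nearest to C9orf142 were HSD3B7 and a transcript known by a clone name, with a difference of 0.033 log2 units for USP12 and 0.053 for HSD3B7. XRCC5 was nearest to VPS35 and COPB2, PRKDC to NUP188 and MDN1, and XRCC4 to NSMCE4A and SLC30A9. NHEJ1 was nearest to GPATCH1 and DFNA5, and DCLRE1C to RP1-101K10.6 and PITPNB. POLL was nearest to PPP6R2 and DOLPP1, and POLM to STXBP2 and GNB2. No end joining gene was among the 2 nearest to another.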

How the data were processed

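Polyadenylated RNA of 9 OVCAR-8 libraries was sequenced from total RNA with a kit that does not mark strand, per the labels' protocols. The deposited values are RPKM made by the authors. The submitters' processing notes name TopHat2, featureCounts, edgeR and hg19. One table holds all libraries, and per the file headers it also gives the authors' log2 fold change and false discovery rate (adjusted p-value). Whole reads were recovered from RPKM as multiples of a step per library, with 100% of values whole within 0.001, and voom was run on them as an alternative.

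The planned count test was not used because the unit is RPKM. limma 3.58.1 (R 4.3.3) was run on log2(RPKM + 1) with eBayes and a trend, for genes that reached 1 RPKM in 3 or more libraries, with all 9 libraries in 3 groups and p-values adjusted by Benjamini-Hochberg over 15208 genes. Fold changes on this scale understate those of low genes. Ratios of gene pairs were compared with exact permutation tests (scipy 1.17.1). The model was tested on simulated data. The members and lists were chosen with earlier results of these data known. All 10 genes are named, with list members of the lowest adjusted p, neighbours by position and the 2 genes nearest in pattern. A list of end-processing factors is not reported here. TP53BP1, RIF1, MRE11A, NBN, POLQ, TELO2 and C20orf196 were added once values were known. Deviations of same-number libraries correlated at -0.56 to 0.75 between luciferase and CDK12 siRNA, so the AK numbers were not taken as pairs there. Between CDK12-2 and CDK12-6 they correlated at 0.76, 0.13 and 0.81 (AK39, AK41 and AK49). CDK12-6 AK41 correlated more with CDK12-2 AK39 (0.31) than with its own number. The values thus match by number for AK39 and AK49 and do not show a pairing for AK41. With the number as a block 0 genes were called between these siRNAs.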

Additional observations from a re-analysis of the deposited data

How the results depend on the processing

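XRCC6, LIG4 and C9orf142 were called lower for the mean of both siRNAs in all 23 alternatives. NHEJ1 was called in 18, DCLRE1C in 17, POLM in 8 and XRCC4, XRCC5, PRKDC and POLL in 0. Of 24 alternatives for each single siRNA, NHEJ1 was called in 11 with CDK12-2 and 14 with CDK12-6, and DCLRE1C in 3 and 15. With single siRNAs, leaving out AK41 in all groups ended the call of XRCC6 (adjusted p = 0.063 and 0.089, limma) and of LIG4, as did AK39 for LIG4 (0.053 and 0.061), which leaves 2 libraries a group. The AK number as a replicate block gave 6241 called genes against 5024 and 6 called members, with POLM added at an adjusted p of 0.027 (limma), and 10 of 18 library comparisons correlated best with their own number.

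Near-zero changes turned sign. For the mean of both, quantile normalization, scaling to reads in listed genes and equal medians gave 0.037, 0.047 and 0.047 for XRCC5, 0.013, 0.029 and 0.029 for PRKDC, and 0.029, 0.043 and 0.058 for POLL. They gave 0.016, 0.0088 and 0.0031 for XRCC5 with CDK12-2 and 0.016, 0.022 and 0.045 for POLL with CDK12-6. Without luciferase AK41, CDK12-2 AK39 and CDK12-6 AK39, XRCC5 had 0.055, and 0.036 with CDK12-2. The cause was not tested.

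Leaving out replicates gave 1805 to 5314 called genes and 3 to 6 members for the mean of both, 902 to 4214 and 1 to 4 for CDK12-2, and 953 to 4398 and 1 to 6 for CDK12-6. The count of genes was 3095 without AK39 of luciferase for the mean of both, 2340, 2550 and 2352 without AK39 or AK49 of luciferase or AK41 of CDK12-2 for CDK12-2, and 2316, 2533 and 2408 without the first pair or AK41 of CDK12-6 for CDK12-6. XRCC5 ran from -0.077 to 0.071, PRKDC from -0.20 to 0.17 and POLL from -0.095 to 0.11 for the mean of both. With CDK12-2 they ran from -0.11 to 0.034, -0.16 to 0.25 and -0.075 to 0.12, and with CDK12-6 from -0.058 to 0.11, -0.24 to 0.094 and -0.15 to 0.11. CDK12-2 against CDK12-6 had 2 called genes without the filter and 1 without those 3 libraries.

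Log2 ratio differences without single replicates or AK numbers ran from -0.55 to -0.45 for XRCC6/XRCC5, -0.44 to -0.31 for LIG4/XRCC4, 0.37 to 0.49 for NHEJ1/C9orf142, 0.38 to 0.50 for POLL/POLM and 0.34 to 0.52 for PRKDC/DCLRE1C. The exact test lost these calls in 6 of 12 such settings, where fewer arrangements are left. XRCC4/C9orf142 ran from 0.28 to 0.74 and passed in 2, XRCC4/NHEJ1 from -0.12 to 0.25 and XRCC6/DESI1 from -0.21 to 0.070. PRKDC/DCLRE1C fell to 0.25 with 1 RPKM added.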
